A study of Mus musculus with 8 samples.

Results

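The voltage-gated calcium and sodium channels of heart muscle are built from a pore-forming alpha subunit and smaller partners. In all, 8 genes for such subunits were followed in whole hearts of mouse embryos: Cacna1c and Cacna1d (L-type calcium pores), Cacna1g and Cacna1h (T-type calcium pores), Cacnb2 (a beta subunit), Cacna2d1 and Cacna2d2 (alpha2delta subunits) and Scn4b (a sodium channel beta subunit). These 8 genes were chosen by name among the 49315 genes of the count tables, with earlier results of these data known. Each symbol matched 1 Ensembl gene. The hearts were taken at E18.5, late in gestation, from 4 embryos homozygous for CHD4 M195I, called mutant here, and from 4 wild-type embryos, called WT. CHD4 is the ATPase of the nucleosome remodelling and deacetylase complex, and M195I is a single amino acid change that every cell of the mutant embryo carries. RNA came from the dissected heart as a whole, so atria, ventricles, nodes, vessels and connective tissue are mixed, and fewer cells of a type cannot be told apart from less RNA per cell. The comparison asks which of these transcripts differ in level between mutant and WT hearts.

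As background, L-type channels open during the plateau of the cardiac action potential and let in the calcium that triggers release from the sarcoplasmic reticulum. T-type channels open at more negative voltages; they are expressed in embryonic heart muscle and, in the adult, mainly in pacemaker and conduction cells. The beta subunit binds the pore from the cytoplasm and helps bring it to the membrane, the alpha2delta subunits sit on the outside, and sodium channel beta subunits are single-span proteins that modify gating and cell adhesion.

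Total counts per library lay between 18673488 and 21341235 in mutants and between 18375951 and 20815388 in WT. Levels are CPM, read counts relative to library size, after TMM scaling unless another scale is named. A log2 fold change sets mutant over WT and is followed by its standard error. Genotypes were compared by edgeR's quasi-likelihood test, its p-values were adjusted by the Benjamini-Hochberg method over 16372 genes, and a gene was called at an adjusted p under 0.05. The labels do not say that the hearts of a genotype came from separate litters, so the p-values measure the spread between these samples. Chd4 itself averaged 482 ± 8.48 CPM in mutants and 452 ± 6.37 CPM in WT (SD, n = 4 each) and was not called (log2 fold change 0.09 ± 0.03, edgeR adjusted p = 0.095). Every mutant library lay above every WT library, and it was called higher by DESeq2 (adjusted p = 0.0042) and by edgeR with library totals (0.145, adjusted p = 0.0063). Its count does not show the mutated codon and therefore does not check the genotype. Airway transcripts set libraries apart within both genotypes. Scgb3a2, an airway secretoglobin, stood at 284 and 498 CPM of the library total in mutant replicates 3 and 4, and at 176 to 436 CPM in WT replicates 1, 3 and 4. It stood at 0.328 and 6.48 CPM in mutant replicates 2 and 1 and at 0.817 CPM in WT replicate 2. The 7 members that passed the filter on low counts were therefore also compared within these 5 and within these 3 libraries. The 3 hold 1 WT library, which is assumed to vary like the mutants, so their p-values carry little weight. WT replicate 4 had 35.5 CPM of the Y-linked Ddx3y, where the other 7 libraries had 70.3 to 80.4 CPM, and Xist was at 29 to 40 counts in mutants and 23 to 29 counts in WT.

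Of the 8 members, 7 passed the filter on low counts and were tested. In mutant hearts the L-type pore gene Cacna1d and the beta subunit gene Cacnb2 were higher, and the T-type pore gene Cacna1h was lower. The 4 other tested members (Cacna1c, Cacna1g, Cacna2d1 and Cacna2d2) were not called. So 3 of 7 tested members were called, where 13.2% of all genes tested were called. In each direction 2 were called higher, against 5.75% of all genes, and 1 lower, against 7.49%. The genotypes did not overlap for the same 3 members, where 18.6% of all genes tested had no overlap; 2 members lay above WT in every mutant library, against 8.80% of all genes, and 1 below, against 9.77%. Because the members were chosen with earlier results of these data known, these shares describe them and cannot test them as a set. The same holds for the gene lists below. DESeq2 called 4 members higher, adding Cacna1g and Cacna2d2. With the log2 level of Xist as a covariate Cacnb2 was the 1 member called. The Xist counts, 29 to 40 in mutants and 23 to 29 in WT, nearly separated the genotypes. That fit can therefore hardly tell the Xist level apart from genotype. The median log2 fold change was 0.25 over the 7 tested members, which is the value of Cacnb2, and 0.00 over all genes tested. Cacna1c, Cacna1h and Cacna2d1 had negative values. TMM scaling holds the all-gene median near 0, and with library totals it was 0.05. The log2 fold changes of the called members were 0.34 (Cacna1d), 0.25 (Cacnb2) and -0.18 (Cacna1h). The median size over all called genes was 0.27.

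**Figure D1:**
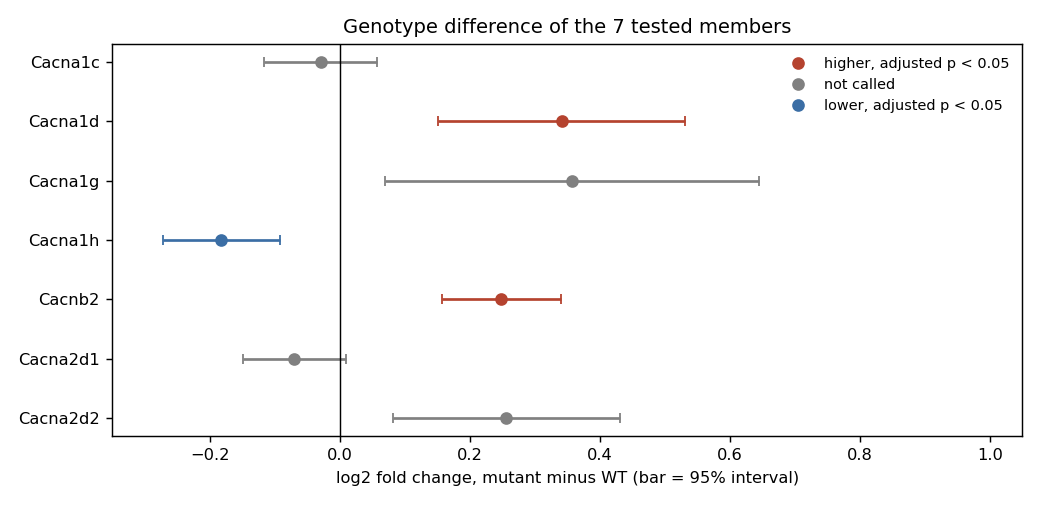
Log2 fold change (mutant minus WT, x axis) of the 7 tested members (y axis), with bars for the 95% interval. Cacna1d and Cacnb2 lie above 0 and Cacna1h below 0 with adjusted p under 0.05, and the intervals of Cacna1g and Cacna2d2 also lie above 0 although their adjusted p-values, 0.11 and 0.059, do not pass.

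Read per kilobase of counted gene length, which allows genes to be compared, Cacna1c had the highest level of the 8 in both genotypes. Its level was 16.6 ± 0.80 CPM per kilobase in mutants and 16.9 ± 0.40 CPM per kilobase in WT. In mutants Cacna1g followed at 12.0 ± 1.69 CPM per kilobase, then Cacna2d2 at 11.2 ± 1.18 and Cacna1h at 9.73 ± 0.48 CPM per kilobase. In WT the order of these was Cacna1h at 11.04 ± 0.32, Cacna2d2 at 9.38 ± 0.71 and Cacna1g at 9.36 ± 0.90 CPM per kilobase. By these means Cacna1h stood below Cacna1g and Cacna2d2 in mutants and above them in WT. In mutant replicate 2, however, Cacna1h at 9.80 CPM per kilobase lay above Cacna1g at 9.65 CPM per kilobase. In both genotypes Cacna2d1, Cacnb2, Cacna1d and Scn4b came next in that order. The ranges of Cacna1g and Cacna2d2, which are neighbours in both orders, overlapped in mutants and in WT, and no other pair of neighbours overlapped. The counted length takes in every annotated exon, up to 21.19 kilobases for Cacna1c, so a gene with many alternative exons reads lower on this scale than its main transcript would.

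**Figure D2:**
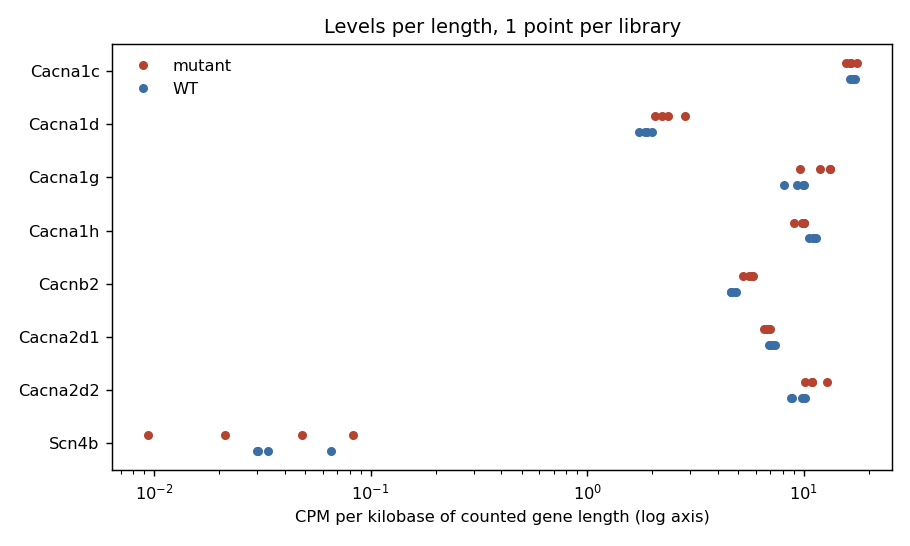
CPM per kilobase of counted gene length (log x axis) of the 8 members (y axis), with 1 point per library, mutants above WT in each row. Cacna1c is highest at 16.6 CPM per kilobase in mutants and 16.9 in WT, and Scn4b is lowest at 0.040 in both.

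Cacna1c encodes the main L-type pore of ventricular muscle and lies on chromosome 6, at 118587240 to 119196418 on the minus strand (GRCm38), 5.9 Mb from Chd4. It had 374, 352, 348 and 333 CPM in mutant replicates 1 to 4, against 368, 358, 348 and 362 CPM in WT replicates 1 to 4. The mutant libraries covered the whole range of the WT libraries. Its log2 fold change was -0.03 ± 0.04 (edgeR adjusted p = 0.72), with a 95% interval from -0.12 to 0.06. The sign was not stable: with library totals in place of TMM the log2 fold change was 0.02.

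Cacna1d encodes the second L-type pore of the heart, which opens at more negative voltages and is known for its role in atrial and pacemaker cells. It lies on chromosome 14, at 30039949 to 30491156 on the minus strand. Its level was 26.0, 19.1, 20.4 and 21.9 CPM in mutant replicates 1 to 4, against 17.0, 16.0, 18.497 and 17.4 CPM in WT replicates 1 to 4. Every mutant library lay above every WT library, by the least in mutant replicate 2 and by the most in mutant replicate 1. The mutant mean was 26.8% above the WT mean (log2 fold change 0.34 ± 0.09, 95% interval 0.15 to 0.53, edgeR adjusted p = 0.019). It was no longer called with WT replicate 1, 2 or 4 left out (edgeR adjusted p = 0.061, 0.062 and 0.053) and within the 5 libraries with airway RNA (0.26, adjusted p = 0.058), and within the 3 others the value was 0.50 (adjusted p = 0.035, with 1 WT library). Without mutant replicate 1 the log2 fold change was 0.25 (adjusted p = 0.045). Exons of Cacna1d overlap those of Chdh on the opposite strand, which had 75 counts in all mutant and 41 in all WT libraries, against 1756 and 1321 for Cacna1d. No source used here says whether the counting used strand, so reads of genes that overlap on opposite strands cannot be told apart.

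Cacnb2 encodes the main beta subunit of cardiac L-type channels and lies on chromosome 2, at 14603088 to 14987908 on the plus strand. It stood at 76.8, 74.3, 76.1 and 69.6 CPM in mutant replicates 1 to 4, against 61.0, 64.1, 63.4 and 61.3 CPM in WT replicates 1 to 4. The genotypes were apart, and the spread within each was narrow, with a coefficient of variation of 4.37% in mutants and 2.44% in WT. The mutant mean was 18.8% above the WT mean (log2 fold change 0.25 ± 0.04, 95% interval 0.16 to 0.34, edgeR adjusted p = 0.0014). This was the smallest adjusted p among the members. Of 3 short genes opposite its exons, Gm10848 had the most counts, 43 in all mutant and 30 in all WT libraries. The call held without any 1 library (log2 fold change 0.23 to 0.28, adjusted p at most 0.0085) and within the 5 libraries with airway RNA (0.23, adjusted p = 0.012). Within the 3 others the value was 0.24 (adjusted p = 0.060).

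Both genes that rose have 2 annotated starts in RefSeq (GRCm38), and counts per gene do not show which of them was used. The 250 bases before each start are printed because these are the members that rose and because their starts differ in kind. Capitals mark matches on either strand to the core promoter motif TATAAA, the NKX2-5 core motif AAGTG, the cyclic AMP element core TGACG, the hypoxia element core ACGTG, the GATA-type motif AGATAA, or the MEF2 motif. The first start of Cacnb2 lies behind chr2:14604056-14604305 (plus strand), the second behind chr2:14823842-14824091 (plus strand). The first start of Cacna1d lies behind chr14:30491157-30491406 (minus strand), the second behind chr14:30353487-30353736 (minus strand).
Cacnb2, first start: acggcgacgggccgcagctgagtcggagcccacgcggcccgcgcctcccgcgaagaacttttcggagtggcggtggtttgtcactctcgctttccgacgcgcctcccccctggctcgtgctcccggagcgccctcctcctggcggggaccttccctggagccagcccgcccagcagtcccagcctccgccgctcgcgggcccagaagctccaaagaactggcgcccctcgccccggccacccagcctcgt
Cacnb2, second start: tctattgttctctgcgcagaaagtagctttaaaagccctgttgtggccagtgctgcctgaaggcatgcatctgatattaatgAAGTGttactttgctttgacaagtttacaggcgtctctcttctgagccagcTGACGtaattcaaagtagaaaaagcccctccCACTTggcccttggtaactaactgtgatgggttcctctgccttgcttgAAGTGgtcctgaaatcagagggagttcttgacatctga
Cacna1d, first start: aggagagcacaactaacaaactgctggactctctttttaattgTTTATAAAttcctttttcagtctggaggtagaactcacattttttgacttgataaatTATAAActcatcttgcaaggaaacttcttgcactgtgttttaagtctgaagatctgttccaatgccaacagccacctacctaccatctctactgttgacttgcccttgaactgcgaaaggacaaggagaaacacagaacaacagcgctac
Cacna1d, second start: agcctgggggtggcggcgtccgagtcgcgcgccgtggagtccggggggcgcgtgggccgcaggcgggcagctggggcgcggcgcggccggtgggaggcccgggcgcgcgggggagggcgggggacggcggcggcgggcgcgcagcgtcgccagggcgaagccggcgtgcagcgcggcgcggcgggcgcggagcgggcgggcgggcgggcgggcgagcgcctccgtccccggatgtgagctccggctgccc
The first start of Cacnb2 and the second of Cacna1d follow sequence rich in C and G, with 73.2% and 86.4% of bases C or G and 30 and 50 CG dinucleotides. The other starts follow sequence with 46.0% (Cacnb2, second start) and 39.6% (Cacna1d, first start) C or G and 3 and 2 CG dinucleotides, where the median over 32851 such windows was 52.4% and 6. Among the motifs in capitals, the CG-rich windows held none. The second Cacnb2 window held 3 matches to AAGTG, which 40.7% of all windows hold, and 1 to TGACG, which 17.8% hold. The first Cacna1d window held 3 matches to TATAAA, of which 2 overlap each other, and 12.4% of all windows hold this motif. These matches begin 207, 205 and 150 bases before the start, so none lies close to it. The hypoxia motif is held by 16.6%, the GATA-type motif by 9.99% and the MEF2 motif by 3.20% of windows. The E-box CANNTG, which was not put in capitals, occurs in 66.2% of windows and was in 3 of the 4, not in the first Cacna1d window, and it can overlap AAGTG. For 6 of the 8 members a window was at hand. These matches are a description of letters, not of binding.

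Cacna1h and Cacna1g encode the T-type pores of the heart. Cacna1h lies on chromosome 17, at 25374285 to 25433783 on the minus strand, and was the 1 member that fell. It had 98.5, 95.6, 97.7 and 88.2 CPM in mutant replicates 1 to 4, against 108, 108, 104 and 111 CPM in WT replicates 1 to 4. Every mutant library lay below every WT library, and mutant replicate 4 was the lowest. The mutant mean was below the WT mean by a log2 fold change of -0.18 ± 0.04 (95% interval -0.27 to -0.09, edgeR adjusted p = 0.0094). The call held without any 1 library (adjusted p at most 0.037) and within the 5 libraries with airway RNA (-0.21, adjusted p = 0.017), and was lost within the 3 others (-0.16, adjusted p = 0.25).

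Cacna1g lies on chromosome 11, at 94408391 to 94474198 on the minus strand. Its level was 134, 97.8, 134 and 121 CPM in mutant replicates 1 to 4, against 94.2, 82.3, 102 and 101 CPM in WT replicates 1 to 4. Mutant replicates 1, 3 and 4 lay above all WT libraries, and mutant replicate 2 lay between the WT libraries. The mean was 122 ± 17.1 CPM in mutants and 94.9 ± 9.16 CPM in WT, the largest log2 fold change of the 7 tested members but also the one with the widest error among them (0.36 ± 0.12, 95% interval 0.07 to 0.64, edgeR adjusted p = 0.11). Without mutant replicate 2 it passed (0.45, adjusted p = 0.0060), as it did in the 5 libraries with airway RNA, which do not include that library (0.36, adjusted p = 0.00049). On all 8 libraries it passed with DESeq2 (adjusted p = 0.0017), limma-voom (0.048) and the edgeR fit that was not robust (0.039). It also passed with the replicate number as a block in edgeR (0.00015). With other scalings in edgeR it did not pass (adjusted p = 0.079 to 0.12). In the 3 libraries with little airway RNA it was at 0.50 with an adjusted p of 0.64.

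**Figure D3:**
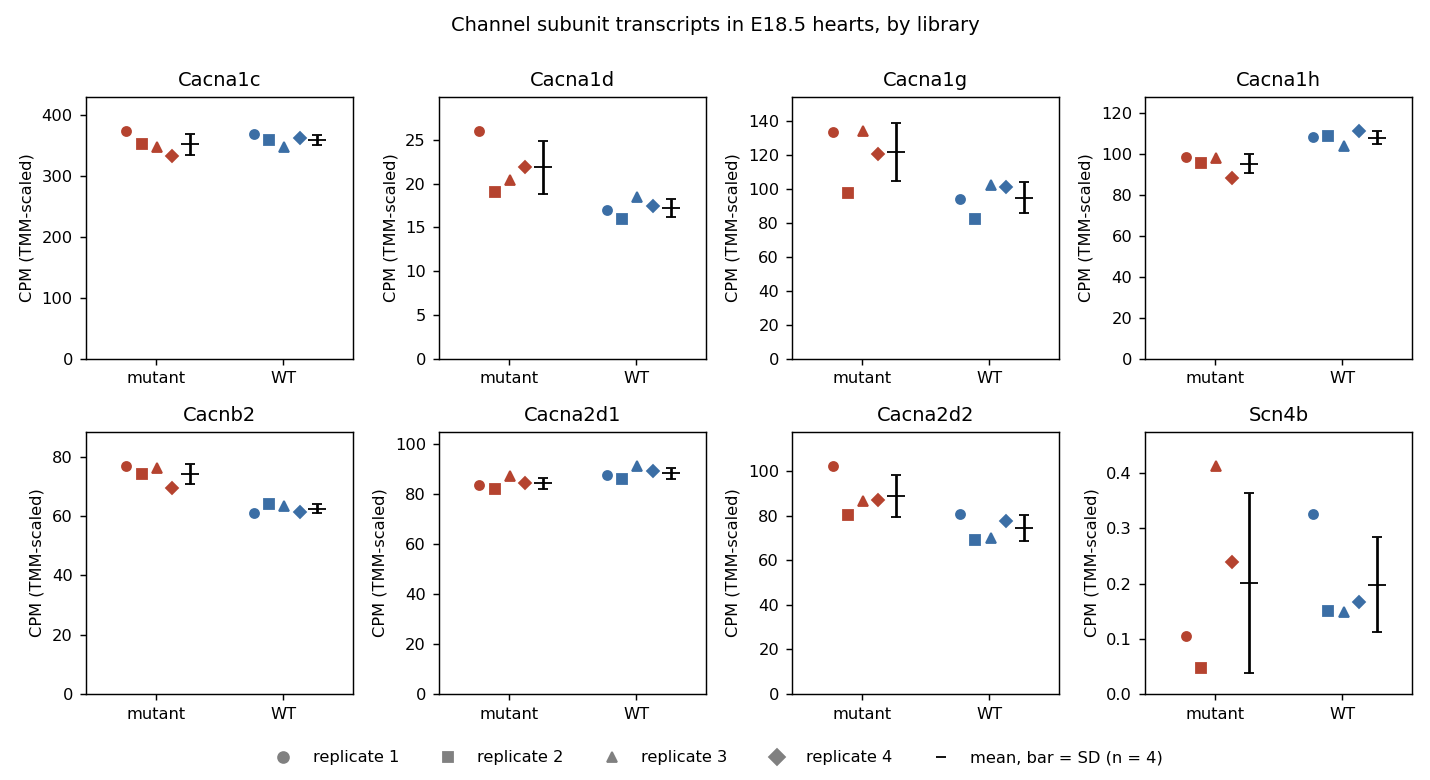
TMM-scaled CPM (y axis, from 0) of each member in the 4 mutant and 4 WT libraries; symbols give the replicate number, and the black mark and bar give the mean and SD (n = 4). The genotypes are apart for Cacna1d, Cacnb2 and Cacna1h, and mutant replicate 2 is the lowest mutant library for Cacna1d, Cacna1g, Cacna2d1, Cacna2d2 and Scn4b.

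The alpha2delta subunits are cleaved proteins outside the membrane that raise channel number at the surface. Cacna2d2 (chromosome 9, 107399612 to 107529343, plus strand) had 102, 80.2, 86.8 and 86.9 CPM in mutant replicates 1 to 4, against 80.8, 69.3, 70.2 and 77.8 CPM in WT replicates 1 to 4. The groups overlapped by 1 library on each side, mutant replicate 2 and WT replicate 1. The log2 fold change was 0.26 ± 0.08 (95% interval 0.08 to 0.43) and did not pass with edgeR (adjusted p = 0.059), whereas DESeq2 called it (adjusted p = 0.0076), and so did edgeR without mutant replicate 2 (0.30, adjusted p = 0.028). Among other edgeR fits, library totals (adjusted p = 0.035), no filter on low counts (2.15e-06), the fit that was not robust (0.048) and the replicate block (0.00098) called it. Limma-voom did not (adjusted p = 0.052). Cacna2d1 (chromosome 5, 15934691 to 16374511, plus strand), the alpha2delta subunit best known from cardiac L-type channels, stood at 83.7, 81.8, 87.0 and 84.4 CPM in mutant replicates 1 to 4, against 87.4, 86.0, 91.1 and 89.0 CPM in WT replicates 1 to 4. The groups overlapped, and the log2 fold change of -0.07 ± 0.04 (95% interval -0.15 to 0.01) was not called (edgeR adjusted p = 0.25).

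Scn4b (chromosome 9, 45138395 to 45154152, plus strand), which encodes a sodium channel beta subunit, was almost undetected. It had 2, 1, 8 and 5 counts in mutant replicates 1 to 4, against 6, 3, 3 and 3 counts in WT replicates 1 to 4. The sums were 16 counts in mutants (exact Poisson 95% interval 9.15 to 26.0) and 15 counts in WT (8.40 to 24.7), and these intervals cover counting error only. It did not pass the filter on low counts. In a fit with no such filter the log2 fold change was 0.03 ± 0.60 (edgeR adjusted p = 0.99) with a 95% interval from -1.14 to 1.20. Differences inside that interval are not excluded at this depth.

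The balance between related subunits was read from counts per kilobase in each library, as a description. Cacna1g made up 56.7%, 49.6%, 57.0% and 56.8% of the T-type transcripts (Cacna1g plus Cacna1h) in mutant replicates 1 to 4, against 45.6%, 42.2%, 48.7% and 46.7% in WT replicates 1 to 4. The genotypes did not overlap, with mutant replicate 2 next to WT replicate 3. Cacna1g was thus the more abundant T-type pore in 3 of 4 mutant libraries and Cacna1h in all 4 WT libraries on this scale. In mutant replicate 2 the order rests on the division by length, since Cacna1g stood at 97.8 CPM and Cacna1h at 95.6 CPM there. The share of Cacna1d among L-type pores was 12.4 ± 1.23% in mutants and 9.93 ± 0.69% in WT (SD, n = 4 each), and the share of Cacna2d2 among the alpha2delta pair was 62.2 ± 2.35% in mutants and 56.8 ± 1.998% in WT, with no overlap for either. Relative to Cacna1c, both per kilobase, Cacnb2 stood at 0.338 ± 0.009 in mutants and 0.279 ± 0.012 in WT, also with no overlap. The size of this ratio rests on the counted lengths. The T-type share of all 4 pore transcripts was 53.4 ± 1.86% in mutants and 52.0 ± 1.08% in WT and overlapped. That the T-type share was the larger one rests on the division by length. In undivided counts the L-type transcripts made up the larger part in both genotypes. A ratio shows unequal change between members and not which of them changed.

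**Figure D4:**
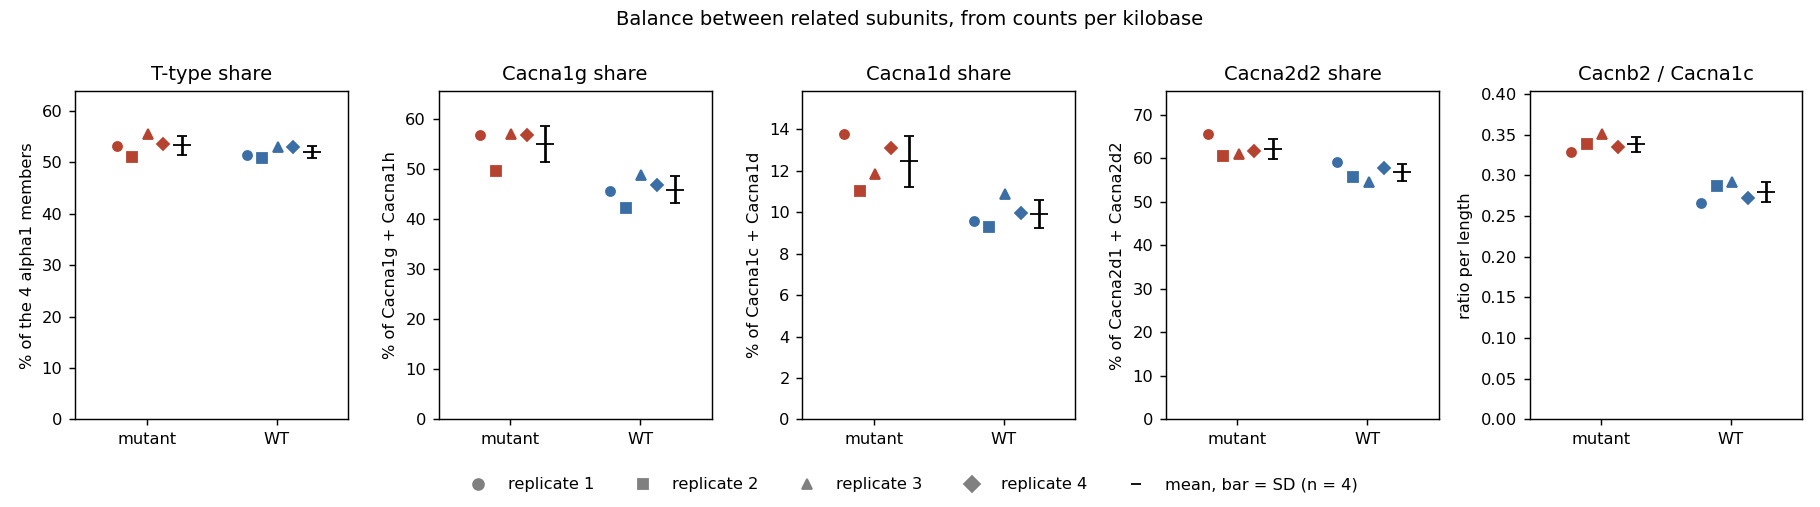
Shares (%) and 1 ratio (y axes, from 0) computed from counts per kilobase, for 4 mutant and 4 WT libraries; symbols give the replicate number, and the black mark and bar give the mean and SD. The Cacna1g share is 49.6% to 57.0% in mutants and 42.2% to 48.7% in WT, and the T-type share of the 4 pore transcripts overlaps.

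Among 19 other calcium channel subunit genes, 11 were tested, and Cacng6, a gamma subunit gene, rose. Its level was 11.3 ± 1.57 CPM in mutants and 6.98 ± 1.19 CPM in WT (log2 fold change 0.69 ± 0.13, edgeR adjusted p = 0.0035), with no overlap between 9.58 CPM, the lowest mutant library, and 8.04 CPM, the highest WT library. The other 10 were not called, among them the most abundant, the beta subunit gene Cacnb3 at 24.1 ± 0.63 CPM in mutants and 22.6 ± 0.88 CPM in WT. The called share was 9.09%, against 13.2% of all genes tested, and the median log2 fold change was 0.09. Scn2b and Scn3b, which encode other sodium channel beta subunits, were not called. Scn3b averaged 4.47 ± 1.85 CPM in mutants and 4.84 ± 0.90 CPM in WT (log2 fold change -0.11 ± 0.27, edgeR adjusted p = 0.86), and its sign was not stable: without mutant replicate 1 the log2 fold change was 0.0546.

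Of 26 genes for channel regulators and partners, 25 were tested, 1 rose and 4 fell. The called share was 20.0%, against 13.2% of all genes tested, and the median log2 fold change was -0.06. Stac2, a member of the Stac family of adaptor proteins that bind L-type channels, rose to 4.80 ± 0.48 CPM in mutants, against 2.80 ± 0.48 CPM in WT (0.77 ± 0.15, edgeR adjusted p = 0.0040). Prkar1a, the regulatory subunit of protein kinase A, fell to 646 ± 27.9 CPM in mutants, against 742 ± 15.2 CPM in WT (-0.20 ± 0.04). Camk2g, a calcium/calmodulin-dependent kinase, fell as well (-0.19 ± 0.04), and so did Fgf11, a homologous factor of the intracellular FGF group (-0.56 ± 0.10), which was named after its values were seen. The edgeR adjusted p-values of these 3 lay between 0.0039 and 0.0055. The most abundant gene that was not called was the scaffold gene Ahnak, at 771 ± 19.0 CPM in mutants and 805 ± 43.1 CPM in WT.

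Of 15 excitation-contraction partners, which handle the calcium that the L-type channel lets in, all were tested, 1 rose and 6 fell. The called share was 46.7%, against 13.2% of all genes tested, and the median log2 fold change was -0.16. Srl, the sarcalumenin gene, fell to 945 ± 44.3 CPM in mutants, against 1242 ± 24.1 CPM in WT (-0.39 ± 0.04, edgeR adjusted p = 3.9e-05). Tmem38a, a cation channel of the sarcoplasmic reticulum, fell to 132 ± 9.13 CPM in mutants, against 178 ± 7.38 CPM in WT (-0.43 ± 0.05, edgeR adjusted p = 7.5e-05). Asph (-0.20 ± 0.04), whose locus also encodes junctin and which overlaps Clvs1 on the opposite strand, and the calcium-binding Sri (-0.19 ± 0.05) were the next by p-value. Slc8a1, the sodium-calcium exchanger, was the 1 that rose, at 511 ± 20.5 CPM in mutants against 459 ± 29.1 CPM in WT (0.15 ± 0.05, edgeR adjusted p = 0.047); it was named after its values were seen, and its call was lost without any 1 of 6 libraries (adjusted p = 0.052 to 0.13) and within the 5 libraries with airway RNA (0.09, adjusted p = 0.27). The calcium pump gene Atp2a2, the most abundant that was not called, averaged 5122 ± 471 CPM in mutants and 5708 ± 111 CPM in WT (edgeR adjusted p = 0.081). It passed without mutant replicate 3 (-0.21, edgeR adjusted p = 0.012). On all libraries it passed with DESeq2 (adjusted p = 0.030), and in edgeR with the replicate block (0.046) and with no filter on low counts (0.025). It did not pass with limma-voom (adjusted p = 0.091) or the edgeR fit that was not robust (0.092).

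Cacna1d and the T-type pores Cacna1g and Cacna1h are known from pacemaker cells, so markers of those cells are given beside them. Among these members Cacna1d was called higher, Cacna1h was called lower and Cacna1g was not called. Of 7 markers of the sinoatrial and atrioventricular node, 3 rose, 1 fell and 3 were not called, and none was at 0. Among all genes tested 5.75% were called higher and 7.49% lower. The summed level of the 7 lay between 145 and 163 CPM in mutants and between 118 and 136 CPM in WT. The pacemaker channel gene Hcn4 averaged 56.4 ± 5.52 CPM in mutants and 37.0 ± 4.18 CPM in WT (0.61 ± 0.09, edgeR adjusted p = 0.0018). It had the largest difference in CPM of the 7 markers and so weighs most in the difference of the sums. Smoc2, which was not called, averaged 41.93 ± 2.90 CPM in mutants and 41.85 ± 3.14 CPM in WT. The nodal factor Shox2 (0.56 ± 0.10), whose exons overlap those of the more abundant Rsrc1 on the opposite strand, and Vsnl1 (0.52 ± 0.10) rose. The node marker Tbx3 went the other way and fell (-0.29 ± 0.08, edgeR adjusted p = 0.022). Tbx3 was no longer called with mutant replicate 2 or 3, or WT replicate 1, 2 or 4, left out (adjusted p = 0.061 to 0.080). Of 5 Purkinje markers, Cpne5 rose (0.60 ± 0.09) and 4 were not called. Their summed level was 189 to 232 CPM in mutants and 178 to 183 CPM in WT. Gja5 had the largest difference in CPM of the 5 and was not called. It averaged 124 ± 17.5 CPM in mutants and 98.5 ± 3.81 CPM in WT (edgeR adjusted p = 0.065). The part of these cells in the channel results was not tested.

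**Figure D5:**
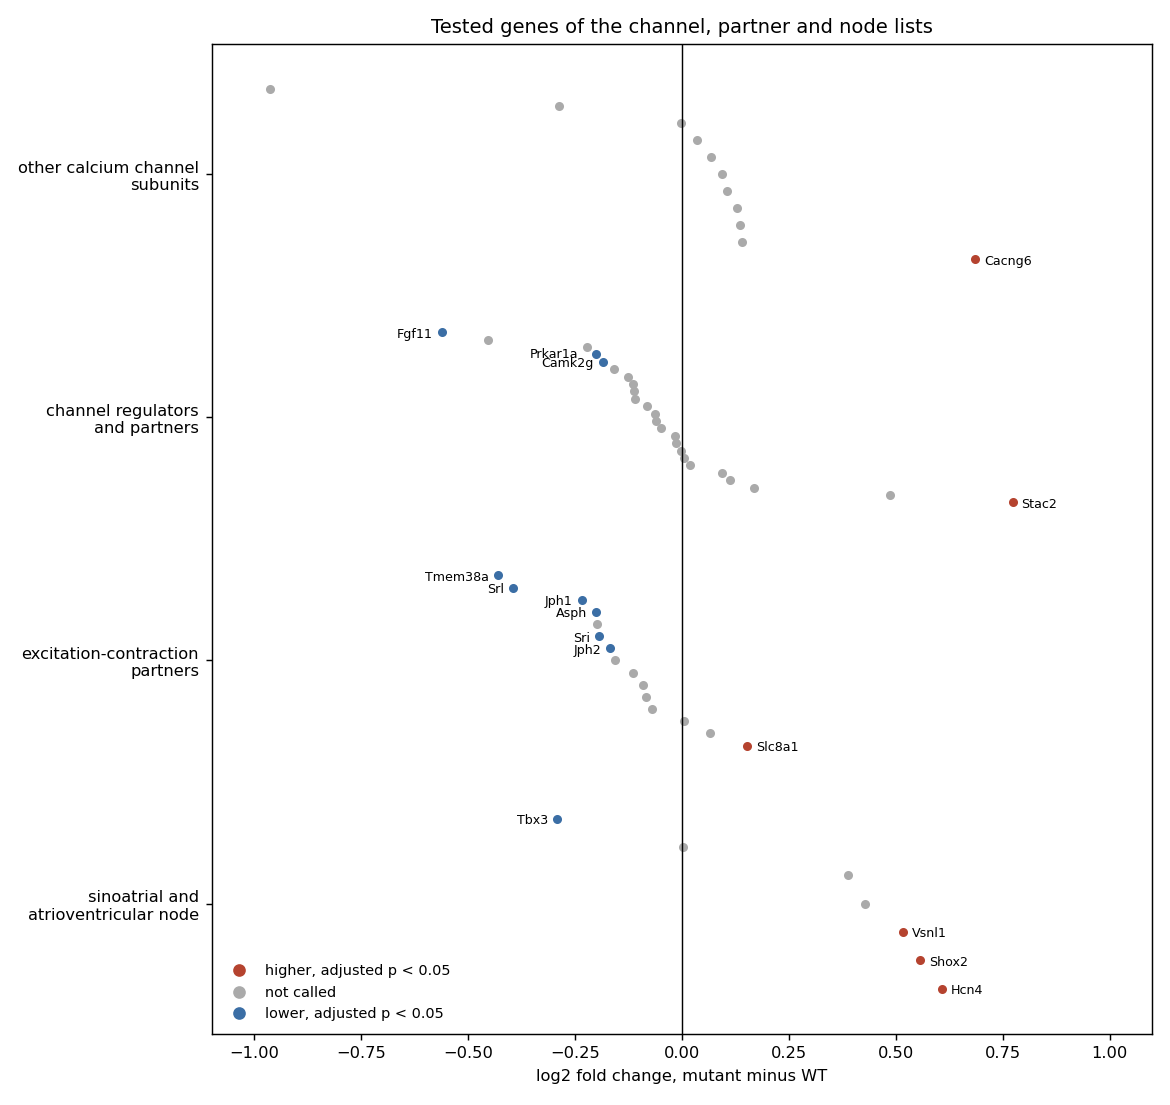
Log2 fold change (mutant minus WT, x axis) of the tested genes in 3 channel and partner lists and the node marker list (y axis), 1 point per gene, with the called genes named; 1 gene that is not reported here is left out. Of the excitation-contraction partners 6 of 15 fell and 1 rose, and of the node markers 3 of 7 rose and 1 fell. Among all genes tested 5.75% were called higher and 7.49% lower.

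The defining markers of heart muscle were present in both genotypes: the 6 markers of working cardiomyocytes summed to 23820 to 29400 CPM in mutants and 28390 to 31290 CPM in WT, with 1 that fell. Of 6 atrial markers 1 rose and 1 fell (3501 to 4439 CPM in mutants, 4313 to 5037 CPM in WT), and of 5 ventricular markers 1 fell (5893 to 6188 CPM in mutants, 6115 to 7106 CPM in WT). Of 5 smooth muscle markers 2 fell (967 to 1111 CPM in mutants, 1177 to 1273 CPM in WT). The 8 skeletal muscle markers were low, at 26.2 to 31.4 CPM in mutants and 35.9 to 39.3 CPM in WT, with Myod1 at 0 counts in every library and 3 of 5 tested markers lower. The 7 tested of 8 cardiac ganglion neuron markers (9.96 to 25.1 CPM in mutants, 10.6 to 25.4 CPM in WT), the 7 lung and airway markers (0.977 to 753 CPM in mutants, 1.95 to 497 CPM in WT) and the 6 erythroid markers (1241 to 1959 CPM in mutants, 2026 to 3879 CPM in WT) had no called gene. Of 5 fibroblast markers 1 fell (2686 to 2901 CPM in mutants, 2395 to 3251 CPM in WT). Of 5 endothelial markers 1 rose and 1 fell (905 to 993 CPM in mutants, 950 to 1014 CPM in WT). Beside these counts, 5.75% of all genes tested were called higher and 7.49% lower. The part of these cells in the channel results was not tested.

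The genes with the pattern most like that of a called member were sought among 9842 genes, by the root mean square difference of centred log2 levels over the 8 libraries. Closest to Cacna1d, the called member with the largest rise, were Stim1, a calcium sensor of the endoplasmic reticulum (0.074), AI480526 (0.074) and Plekhh1 (0.083), of which Stim1 was called (log2 fold change 0.31 ± 0.08, edgeR adjusted p = 0.018). Stim1 averaged 39.3 ± 4.17 CPM in mutants and 31.7 ± 2.40 CPM in WT. Closest to Cacna1h were Hk1, a hexokinase (0.023), the inositol phosphatase gene Inppl1 (0.024) and Ablim1, an actin-binding protein (0.027). All 3 fell, by 0.18, 0.18 and 0.20 on the log2 scale (edgeR adjusted p = 0.0061, 0.015 and 0.0033). Inppl1 lost its call without WT replicate 4. AI480526, Plekhh1, Hk1 and Inppl1 each share exon sequence with a gene on the opposite strand. The likeness uses the genotype difference itself and is a description.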

How the data were processed

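Counts per gene and library were deposited by the authors as raw counts. The submitters' processing notes name Trimmomatic 0.36, STAR 2.5.2b, featureCounts of Subread 1.5.2 and the build GRCm38. Which annotation release and strand setting were used is not given in these sources. The series-wide table and the files per library differed in 0 values. All 8 file headers name a male sample, and groups came from the labels. Each of 8 libraries is 1 sample.

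From the counts, genes were kept by filterByExpr (minimum count 10), scaled by TMM and tested with the robust quasi-likelihood fit of edgeR 4.0.16 (genotype as the single term, common biological coefficient of variation 0.091), with Benjamini-Hochberg adjustment and a threshold of 0.05. This was tested on simulated data. Replicates of a genotype differed by more than sampling noise, so none was taken as a duplicate. Counted length is the gene length in the deposited files; exon overlaps came from GENCODE and promoter windows from RefSeq. Alternatives were DESeq2 1.42.0, limma-voom (limma 3.58.1), other scalings and filters, covariates, subsets of libraries and each library left out. Libraries were split by airway RNA at 10 CPM of Scgb3a2. From each gene list all called genes were named if at most 4, otherwise the 4 with the smallest adjusted p, plus the most abundant not called. The most alike genes were the 3 closest, on log2(CPM + 0.5), to the most changed called member in each direction, among genes averaging 10 CPM or more, leaving out unnamed gene models, Xist and Y-linked genes. The members and lists were chosen with earlier results of these data known. Some genes that the naming rule selects are not reported here.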

Additional observations from a re-analysis of the deposited data

Results flagged for a closer look

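In 30 groups of 4 libraries the sample farthest from the rest was set against Dixon's 95% critical value, which chance passes in about 1 in 20 groups, and 3 values passed. The Cacna1g share of T-type transcripts was 49.6% in mutant replicate 2 and 56.7% to 57.0% in the other mutant libraries. The ratio of Cacna1g to Cacna1h, which is made from the same values, was 0.985 in mutant replicate 2 and 1.31 to 1.32 in the others. Scn4b stood at 0.326 CPM, or 6 counts, in WT replicate 1 and at 0.148 to 0.167 CPM, or 3 counts each, in the other WT libraries.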

How the results depend on the processing

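Without scaling factors (library totals) 1856 genes were higher in mutants, against 942 with TMM, and the higher share of calls was 68.4% against 43.5%. A fit that also held the Xist level found 140 genes higher and 186 lower, and 1 member was higher and 0 lower. Xist itself had 29 to 40 counts in mutants and 23 to 29 in WT, which nearly separates the genotypes. Within the 5 libraries with airway RNA 609 genes were higher. Within the 3 others 595 were higher and 812 lower, and 1 member was higher and 0 lower. Without any 1 library 579 (without WT replicate 1) to 850 genes were higher and 899 to 1137 lower, and 1 to 4 members were higher: 1 without WT replicate 1, 2 or 4, and 4 without mutant replicate 2. DESeq2 and the fit that was not robust each called 4 members higher. The replicate numbers do not pair the samples: deviations of same-numbered samples correlated at -0.51, 0.77, 0.56 and 0.05, not every sample correlated best with its own number, and with the replicate number as a block 4 members were higher. Without division by gene length the T-type share of pore transcripts was 36.7% in mutants and 35.02% in WT. Cacna1c changed sign with library totals (0.0228), with the Xist covariate (0.0153) and in the 3 libraries with little airway RNA (0.0245), and ranged from -0.0594 to 0.00 (without mutant replicate 4) with 1 library left out. Scn3b changed sign in the 5 libraries with airway RNA (0.13) and ranged from -0.4173 to 0.0546 (without mutant replicate 1) with 1 library left out, and Ahnak changed sign in the 3 others (0.0916). The cause was not tested. Over the members' alternatives 130 values kept direction and side of the threshold, 12 passed it newly, 8 no longer passed it, 3 changed sign and 1 was at 0.00. Depth limits Scn4b, with 1 to 8 counts per library.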
